A study of Xenopus tropicalis with 2 samples.

Results

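Levels and co-detection of 7 transcription factor genes of the neural border and the epidermis were measured in single nuclei of the early gastrula. The genes, pax3, msx1, tfap2a, tfap2c, dlx3, dlx5 and dlx6, were chosen by symbol, and all 7 were found among the 21821 genes of the count table. The embryos were wild-type Xenopus tropicalis, an African frog, at stage 10.5, fertilised in vitro and collected whole, and their nuclei were fixed and barcoded by the Parse method before sequencing. The 2 samples were sublibraries of 1 pool of nuclei from pooled embryos, so they formed 1 group of technical replicates. The wider study asked how the factors Foxi2 and Sox3 set up the ectoderm, and the comparison made here was between classes of nuclei within that pool. No biological replicate was available, so spreads between sublibraries and intervals for counting error are given without a test.

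At the early gastrula stage the ectoderm becomes divided into a neural plate, where SoxB1 factors such as Sox2 and Sox3 are expressed, and a non-neural domain that forms epidermis under BMP signalling. The strip between them, the neural border, gives rise to neural crest and placodes, and is known for the expression of pax3, msx1, tfap2 and dlx genes. Xenopus ectoderm also has an outer, superficial layer and an inner, deep layer, which differ in the cell types they form. Pax3 is a paired-box and homeodomain factor required for neural crest induction, and Msx1 is a homeodomain factor downstream of BMP. Tfap2a and Tfap2c are AP-2 factors of epidermis and neural crest. Dlx3, Dlx5 and Dlx6 are Distal-less homeodomain factors of the non-neural ectoderm, of which Dlx3 is known to counteract neural fate.

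The sublibraries held 44341256 and 44026454 unique molecular identifiers (UMIs, distinct transcripts) in 107699 and 107510 barcodes. Nuclei were barcodes with at least 1500 detected genes, 4245 and 4229 in number, fewer in sum than the study states for the same minimum. Of these, 206 barcodes occurred in both sublibraries, where 163 were expected for barcodes drawn apart, and leaving them out changed no count below by more than 1.5 times. After doublet removal 7690 nuclei remained with a median of 4512 UMIs. They formed 14 clusters, built without the 7 genes, and markers of all 3 germ layers were found. 11 clusters were named from lists of marker genes, 4 as inner ectoderm-like (2706 nuclei), 2 as outer ectoderm-like (1587), 3 as mesoderm-like (1753) and 2 as endoderm-like (945). The naming rule was set after marker scores and the levels of the 7 genes were seen. Inner nuclei were split into neural-like (1299) and non-neural-like (1407) clusters, and each cluster is called here by a leading gene. The naming rule had no class for the neural border, which the study lists as a separate inner cluster. Non-neural-like nuclei may therefore include border nuclei and are not read as epidermis alone. Which of them belong to the border was not tested. The 2 non-neural-like inner clusters, led by prdm14 and mettl24, had 1 of 5 inner and 0 of 5 outer layer markers raised over all other clusters together. The prdm14 cluster, with 856 of the 1407 non-neural-like inner nuclei, had 3 non-neural but also 2 neural markers raised. Levels are CPM, the summed UMIs of a gene in a class or cluster scaled to a common total of UMIs, the usual unit of RNA-seq levels. All 5 inner markers, which also named the layers, were higher in inner than in outer non-neural-like nuclei. The levels were 7689 against 504 CPM for col18a1, 439 against 111 for zeb2 and 220 against 71.4 for lrp2. For lama1 they were 71.1 against 12.8 CPM, and for lamb1 129 against 22.1. Except for col18a1, the inner non-neural-like levels were below the inner neural-like ones. In the prdm14 cluster the sox3 level, 255 CPM, was above the 213 CPM of the neural-like pde7b cluster, and the sox2 level was 122 CPM. The mesoderm-like clusters led by ventx3.2 and lhx6 were also weakly set apart, with standardised mesoderm scores of 0.12 and 0.65 and neural scores of -0.13 and 0.70.

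Detection differed widely among the 7 genes. Tfap2a had 22653 UMIs in the kept nuclei and was found in 59.6% of them, and tfap2c had 21683 UMIs in 60.5%. Pax3 had 2611 UMIs in 14.2% of nuclei, and dlx5 had 2123 UMIs in 17.6%. The remaining genes were sparse, with 521 UMIs in 5.94% of nuclei for dlx3, 236 UMIs in 2.68% for msx1 and 31 UMIs in 0.403% for dlx6. Counts of different genes depend on gene length and capture as well as on transcription, so levels are compared below between classes for each gene and not between genes. Dlx6 had fewer than the minimum of 50 UMIs in every comparison and is given by its counts, and msx1 fell under it only between the outer regions.

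The genes lie on 4 chromosomes of the assembly UCB_Xtro_10.0, by RefSeq coordinates matched by symbol. Pax3 (XBXT10g019243) is on chromosome 5 at 124953554 to 124997219, and msx1 (XBXT10g010483) on chromosome 1 at 25969233 to 25972408. Tfap2a (XBXT10g016094) is on chromosome 6 at 90348322 to 90367581, and tfap2c (XBXT10g005959) on chromosome 10 at 5938634 to 5958879. Dlx3 (XBXT10g012135) is on chromosome 10 at 14661908 to 14670732. Dlx6 (XBXT10g027257), at 33907210 to 33912166 on chromosome 6, and dlx5 (XBXT10g006814), at 33921606 to 33926545, are neighbours with 9439 bases between them, an arrangement of dlx genes found across vertebrates. Despite that closeness dlx5 gave 2123 UMIs and dlx6 31.

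Both AP-2 genes were high in non-neural-like ectoderm of either layer and low in the most neural clusters. For tfap2a the outer non-neural-like cluster led by ugt3a2 stood highest, at 1225 CPM in sublibrary 1 and 1280 in sublibrary 2. The inner non-neural-like clusters led by prdm14 and mettl24 followed for tfap2a with 1121 CPM ± 17.5 (SD, n = 2) and 1036 CPM ± 16.4 (SD, n = 2). These 3 clusters were separated by more than their sublibrary spread, and all other clusters lay far below them. In the inner neural-like clusters tfap2a reached 213 CPM (95% Poisson interval 199 to 228) in the pde7b cluster and 127 CPM (112 to 143) in the zic4 cluster, against 110 CPM (98.9 to 122) in the endoderm-like cdh12 cluster. The other endoderm-like cluster, led by slc12a3l, had 185 CPM of tfap2a.

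Tfap2c followed the same pattern with a different order at the top. It was highest in the inner mettl24 cluster, at 1142 CPM and 1129 CPM in the 2 sublibraries. The outer ugt3a2 cluster had 1057 CPM ± 9.02 (SD, n = 2) of tfap2c and the inner prdm14 cluster 1049 CPM ± 10.2 (SD, n = 2), and these did not differ beyond counting error. The outer cluster led by tspan1, in which neural and non-neural markers scored almost alike, was intermediate for both genes, with 431 CPM of tfap2c and 422 CPM of tfap2a. Outside the ectoderm the mesoderm-like cluster led by ventx3.2 and cdx2, genes of ventral and posterior tissue, stood out with 631 CPM ± 3.08 (SD, n = 2) of tfap2c. The lowest tfap2c level was in the endoderm-like cdh12 cluster, at 83.8 CPM (74.3 to 94.2), which overlapped the lhx6 mesoderm-like and zic4 clusters.

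**Figure D1:**
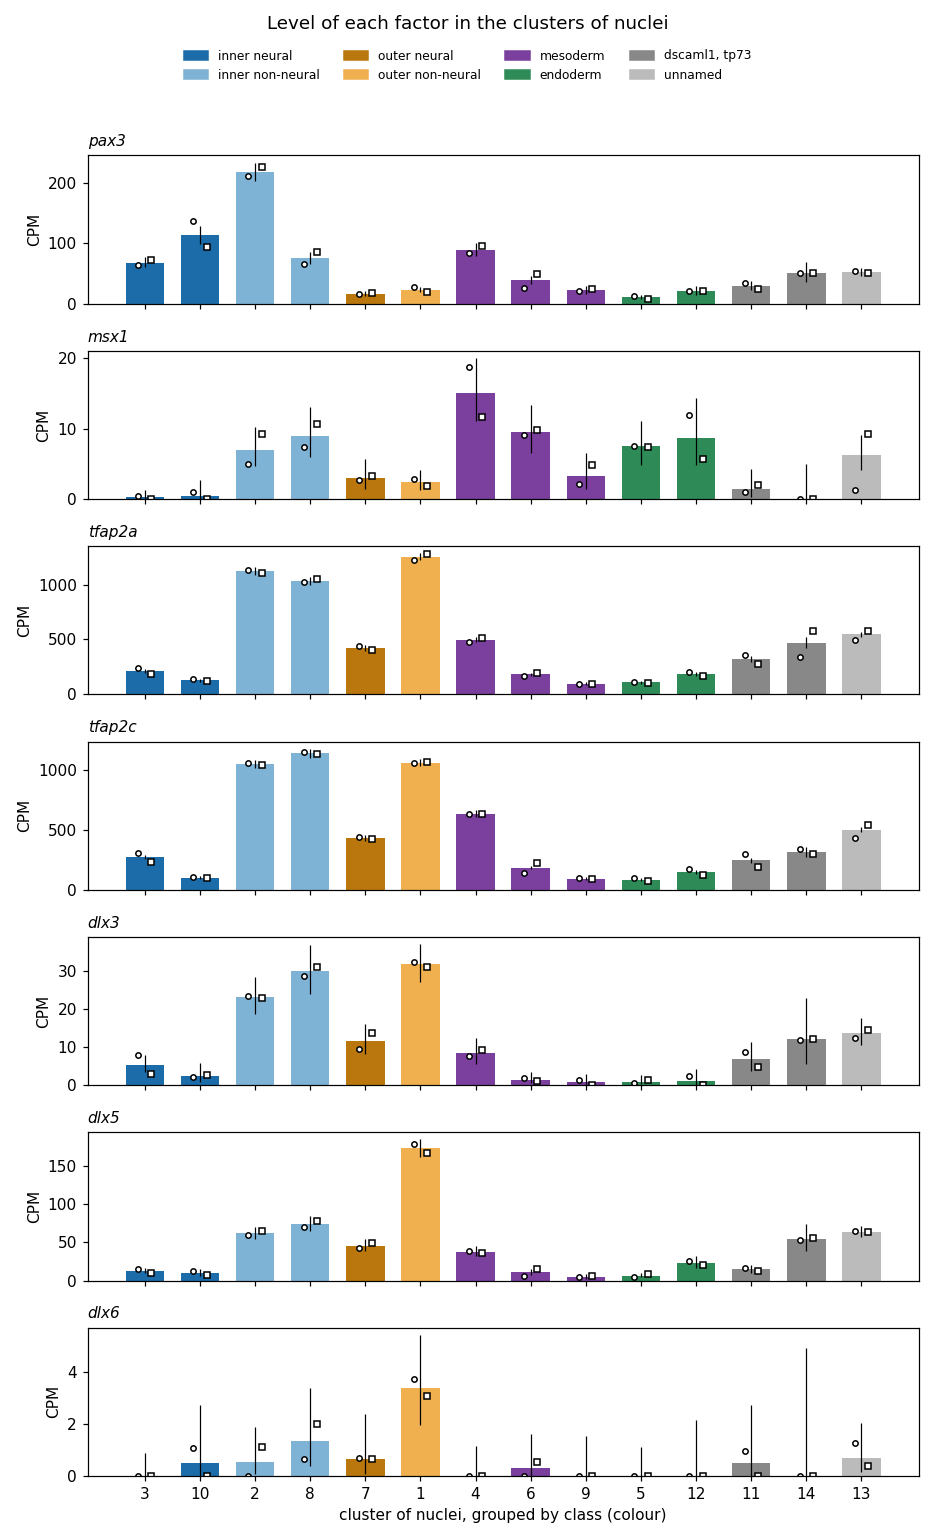
Level of each of the 7 genes (CPM of summed UMIs, y axis) in the 14 clusters of nuclei (x axis), grouped and coloured by their marker-based, X-like class. Bars are both sublibraries together, lines are exact 95% Poisson intervals, circles are sublibrary 1 and squares sublibrary 2. Tfap2a and tfap2c stand high in clusters 1, 2 and 8, dlx5 in cluster 1 and pax3 in cluster 2.

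The dlx genes were also highest in non-neural-like ectoderm, and dlx5 set the outer ugt3a2 cluster apart. In the outer ugt3a2 cluster dlx5 reached 179 CPM and 168 CPM in the 2 sublibraries, and it was found in 33.6% of these nuclei at 2500 UMIs each. The next cluster for dlx5, the inner mettl24 cluster, had 70.6 CPM and 78.0 CPM, so the 2 clusters did not overlap. The inner prdm14 cluster had 61.9 CPM (54.3 to 70.3). The other outer cluster, led by tspan1, was below both inner non-neural-like clusters, at 45.7 CPM (38.4 to 54.0). The inner neural-like clusters had 12.8 CPM and 9.80 CPM. Endoderm-like nuclei had 12.2 CPM (9.39 to 15.7) of dlx5, so the inner neural-like levels were not resolved from theirs. Of the 2 endoderm-like clusters, the cdh12 cluster had 6.58 CPM (4.13 to 9.97) and the slc12a3l cluster 23.3 CPM.

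Dlx3 was alike in the non-neural-like clusters of both layers. It had 31.7 CPM (27.0 to 37.0) in the outer ugt3a2 cluster and 29.9 CPM (24.0 to 36.7) in the inner mettl24 cluster, with overlapping intervals and sublibraries. In the inner prdm14 cluster it had 23.4 CPM and 22.9 CPM. Down the order of clusters, 12 of the 13 neighbouring pairs of dlx3 levels overlapped in their intervals, so only the contrast between high and low clusters is resolved. Of the 31 dlx6 UMIs, 17 fell in the outer ugt3a2 cluster, the same cluster in which dlx5 was highest, at 3.74 CPM and 3.07 CPM in the 2 sublibraries. That exceeded the 1.33 CPM (0.361 to 3.40) in the mettl24 cluster in both sublibraries, but the intervals overlapped.

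Pax3 was concentrated in the inner layer. The inner prdm14 cluster, of which pax3 was itself among the 10 leading genes, had 211 CPM in sublibrary 1 and 226 CPM in sublibrary 2. The zic4 cluster followed with 136 CPM and 94.2 CPM, so the 2 clusters did not overlap although the sublibraries of the zic4 cluster lay apart. The ventx3.2 mesoderm-like cluster (89.7 CPM), the mettl24 cluster (75.3 CPM) and the pde7b cluster (68.0 CPM) came next, in that order, and each overlapped the next in its interval. The outer clusters were near the foot of the order, with 23.1 CPM (19.1 to 27.7) in the ugt3a2 cluster and 16.2 CPM ± 1.18 (SD, n = 2) in the tspan1 cluster. The lowest pax3 level was 10.5 CPM (7.29 to 14.6) in the cdh12 endoderm-like cluster.

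Msx1 was the exception among the 7 genes, being higher outside the ectoderm as a whole. Inner non-neural-like nuclei, at 7.87 CPM (5.91 to 10.3), were level with endoderm-like nuclei, at 7.90 CPM (5.65 to 10.8). Its highest level was 15.1 CPM in the ventx3.2 mesoderm-like cluster, 18.7 and 11.7 CPM from 29 and 19 UMIs in the 2 sublibraries. Within the ectoderm, the inner mettl24 cluster had 8.96 CPM (5.90 to 13.0) of msx1 and the inner prdm14 cluster 7.02 CPM (4.63 to 10.2). The inner neural-like clusters had 1 msx1 UMI each in 821 and 478 nuclei. All 13 neighbouring pairs in the msx1 order overlapped in their intervals.

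Shares of nuclei with a UMI have to be read against free RNA, since barcodes with fewer than 100 genes also held UMIs of the 7 genes. Those barcodes had 62.5 CPM of pax3 against 61.0 CPM in barcodes with at least 1500 genes, and 512 CPM of tfap2a against 540 CPM. Endoderm-like nuclei give a share to read against, but whether they lack AP-2, dlx and pax3 transcripts was not tested. Their clusters differed, with 185 CPM of tfap2a in the slc12a3l cluster and 110 CPM in the cdh12 cluster. For dlx5 these levels were 23.3 and 6.58 CPM. At 2500 UMIs per nucleus tfap2a was found in 19.6% of endoderm-like nuclei, tfap2c in 16.3%, pax3 in 2.43% and dlx5 in 2.33%. Median depths before thinning were 4749 UMIs in endoderm-like, 4294.5 in inner and 4458 in outer ectoderm-like nuclei.

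All 4 of these genes were above that share in the inner layer, with 57.5% for tfap2a, 57.5% for tfap2c, 15.6% for pax3 and 8.72% for dlx5. In the outer layer dlx5 reached 25.1% and tfap2a 74.8%. Pax3 was found in 4.03% of outer nuclei (3.12 to 5.12%), which overlaps the endoderm-like interval of 1.55 to 3.63%, and so is read as background. In the zic4 cluster tfap2a was found in 19.0% of nuclei (15.6 to 22.8%), which was not resolved from the 19.6% of endoderm-like nuclei. Inside the zic4 cluster it was uneven, at 40.0% of nuclei with tfap2c and 14.8% of those without. Msx1 was found in 0.887% of inner and 0.504% of outer nuclei and in 1.59% of endoderm-like nuclei, which are no background for a gene that was higher outside the ectoderm. Its lowest share was 0.154% in inner neural-like nuclei, against 1.56% (0.982 to 2.36%) in inner non-neural-like nuclei. Dlx3 was found in 3.88% of inner, 6.18% of outer and 0.317% of endoderm-like nuclei.

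The first comparison asked which genes were higher in ectoderm-like than in mesoderm- and endoderm-like nuclei. Of the 6 genes with enough counts, 5 were at least 2-fold higher in ectoderm-like nuclei, where 6.82% of all 10735 genes tested were. Dlx3 had the largest ratio, with 19.2 and 18.8 CPM in ectoderm-like nuclei of the 2 sublibraries against 2.80 and 2.72 CPM in the other nuclei, a log2 ratio of 2.41 ± 0.002 (SD, n = 2). Dlx5 followed with 2.09 ± 0.16 (SD, n = 2), from 73.4 and 73.0 CPM against 15.1 and 17.8 CPM. The sublibraries did not overlap between the classes for either gene.

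Tfap2a was higher in ectoderm-like nuclei by a log2 ratio of 1.78 ± 0.10 (SD, n = 2) and tfap2c by 1.60 ± 0.14 (SD, n = 2). Pax3 was the weakest of the 5, at 83.8 and 81.8 CPM against 33.7 and 43.4 CPM, a log2 ratio of 1.09 ± 0.28 (SD, n = 2). In sublibrary 2 alone it was 0.90, under the 2-fold line, and with classes taken from marker UMIs without clustering it was 0.42. Msx1 was lower in ectoderm-like nuclei, with 3.27 and 4.03 CPM against 9.80 and 8.45 CPM, a log2 ratio of -1.12 ± 0.30 (SD, n = 2). Of all genes tested, 8.63% were at least 2-fold lower in ectoderm-like nuclei. With classes taken from marker UMIs the msx1 ratio was -0.39. The ventx3.2 cluster held much of the signal outside the ectoderm. Without it the log2 ratios were 2.51 for tfap2c, 2.42 for tfap2a and 1.76 for pax3, and that of msx1 was -0.85.

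**Figure D2:**
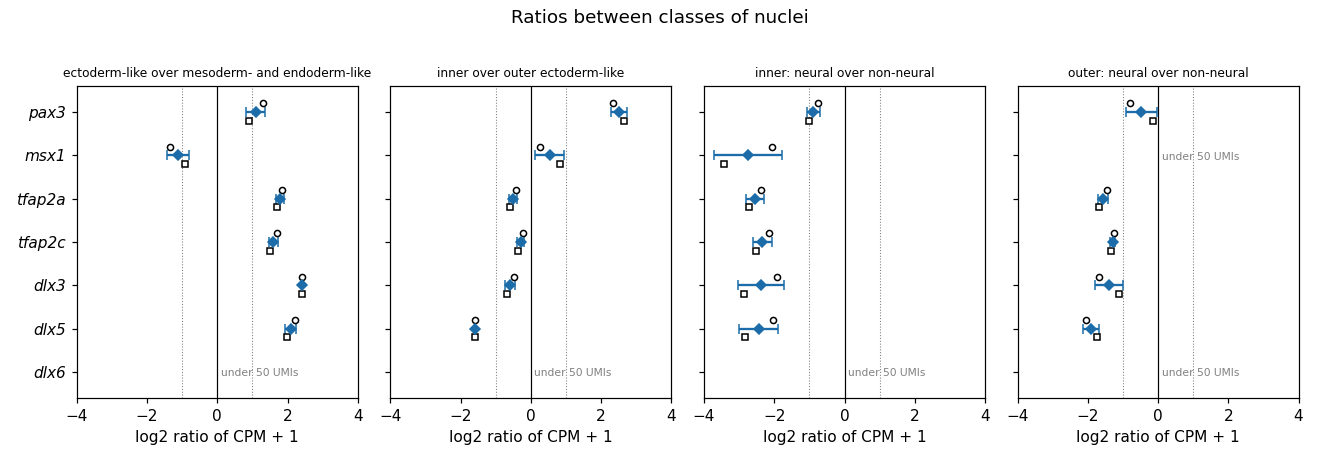
Log2 ratio of CPM + 1 (x axis) of the genes (y axis) in 4 comparisons between marker-based classes of nuclei. Diamonds and bars are mean ± SD of the 2 sublibraries, circles sublibrary 1, squares sublibrary 2, and dotted lines mark 2-fold. Pax3 alone lies beyond 2-fold towards the inner layer and dlx5 alone towards the outer, and 5 genes lie beyond 2-fold towards non-neural-like inner nuclei.

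Inner and outer ectoderm-like nuclei differed most in pax3 and dlx5, in opposite directions. In the 2 sublibraries inner nuclei had 120 and 122 CPM of pax3 and outer nuclei 22.8 and 18.4 CPM, which gave a log2 ratio of 2.51 ± 0.22 (SD, n = 2). It was the only 1 of the 6 genes at least 2-fold higher in the inner layer, where 7.71% of all 9312 genes were. For dlx5 inner nuclei had 41.3 and 40.7 CPM and outer nuclei 127 and 124 CPM, which gave a log2 ratio of -1.59 ± 0.007 (SD, n = 2). It was the only 1 of the 6 at least 2-fold higher in the outer layer, where 9.43% of genes were. With dlx6 included despite its counts, 7 UMIs in 2706 inner and 19 in 1587 outer nuclei, the count for the outer layer was 2. With a minimum of 2000 genes per nucleus the dlx5 ratio was -0.91 and the count 0.

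The other 4 genes lay within 2-fold between the layers. The log2 ratio of inner over outer was -0.52 ± 0.11 (SD, n = 2) for tfap2a, -0.29 ± 0.10 (SD, n = 2) for tfap2c, -0.58 ± 0.14 (SD, n = 2) for dlx3 and 0.53 ± 0.41 (SD, n = 2) for msx1. Of 15 ways of processing, the sign was kept in 13 for tfap2a, 11 for tfap2c and 14 for dlx3, so no direction is given for the AP-2 genes. Dlx3 was 1.53-fold higher in outer nuclei with an interval of 1.25 to 1.87, and its log2 ratio was 0.012 with a stricter doublet threshold. Scaling by the median ratio of genes instead of the class total lowered all of these ratios by 0.19. The layers also differ in their mix of regions, since 1001 of the 1587 outer nuclei were non-neural-like. Among non-neural-like nuclei alone the log2 ratio was 2.71 ± 0.44 (SD, n = 2) for pax3 and -1.35 ± 0.17 (SD, n = 2) for dlx5, while tfap2c was at 0.04 ± 0.02 (SD, n = 2). Msx1 also passed the 2-fold line in that subset, at 1.37 ± 0.75 (SD, n = 2) from 54 and 12 UMIs, though not in sublibrary 1. Thus 2 of 6 genes were higher in inner and 1 in outer non-neural-like nuclei, where 8.06% and 9.19% of all genes were.

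Within the inner layer, 5 of the 6 genes were at least 2-fold higher in non-neural-like than in neural-like nuclei, where 2.71% of all 8050 genes were. None of the 6 was at least 2-fold higher in neural-like nuclei, where 1.79% of genes were. The rule that named these classes was set after the levels of these genes were seen, so the counts are not independent of them. The non-neural-like class also joins the prdm14 cluster, in which neural markers were raised too, with the mettl24 cluster. The comparison is thus not one of epidermis with neural plate. Tfap2a was at 1087 and 1081 CPM in non-neural-like nuclei against 209 and 162 CPM in neural-like nuclei, a log2 ratio of neural over non-neural of -2.55 ± 0.25 (SD, n = 2). The ratio was -2.34 ± 0.26 (SD, n = 2) for tfap2c. AP-2 levels thus differed between the regions by more than between the layers in these classes. Dlx5 had a ratio of -2.44 ± 0.55 (SD, n = 2) and dlx3 of -2.39 ± 0.66 (SD, n = 2), from 27 UMIs in neural-like nuclei. Msx1, with 2 UMIs in neural-like and 54 in non-neural-like nuclei, was 24.3-fold higher in the latter with an interval of 6.42 to 206.

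Pax3 differed less between the regions than the other genes. It was at 87.1 and 79.3 CPM in neural-like and 149 and 162 CPM in non-neural-like nuclei, a log2 ratio of -0.89 ± 0.18 (SD, n = 2). This ratio ranged from -1.02 without sublibrary 1 to 1.57 with a minimum of 2000 genes per nucleus. It kept its sign in 7 of 14 ways of processing. The non-neural-like level of pax3 joins unlike clusters, prdm14 at 218 CPM and mettl24 at 75.3 CPM. The neural-like zic4 and pde7b clusters had 114 and 68.0 CPM, so only the prdm14 cluster stood above both. The count of 5 rested on the names of clusters, which some of these ways rebuilt. It was 1 with a minimum of 1000 or 2000 genes per nucleus, 2 with a stricter doublet threshold and 0 at a coarser resolution. In the outer layer, 4 of 5 genes tested were at least 2-fold higher in the ugt3a2 than in the tspan1 cluster, where 2.17% of genes were. Dlx5 had the largest of these ratios, -1.91 ± 0.22 (SD, n = 2), and tfap2c the smallest, -1.29 ± 0.07 (SD, n = 2). This outer comparison also rested on cluster names. No outer neural-like cluster formed with a minimum of 1000 or 2000 genes per nucleus, at the coarser resolution or with more variable genes. In those settings the outer comparison could not be made.

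A score per nucleus that uses no neural or non-neural cluster names showed the same 5 genes declining across the inner layer. The score was the mean level of 6 neural markers minus that of 7 non-neural markers. These are the markers that named the clusters, so the score is not independent of the names. It divided the 2706 inner nuclei into 5 bins of 541 or 542, which are ranges and not cell types. 5 of the 6 genes were lower in each bin than in the bin before, from the most non-neural to the most neural, as were 5.08% of all genes. Tfap2a fell stepwise over 1283, 877, 585, 348 and 141 CPM, and tfap2c over 1332, 884, 611, 354 and 130 CPM. No 2 neighbouring bins of either gene overlapped in their Poisson intervals. The marker gene sox2, which is part of the score, had 33.9 CPM in bin 1 and 311 CPM in bin 5.

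Dlx5 was at 84.5 CPM in the first bin and 9.34 CPM in the last, and dlx3 at 33.9 CPM and 2.84 CPM. Msx1 went from 20 UMIs (7.44 CPM) to 2 UMIs (0.813 CPM), with neighbouring bins not resolved. Pax3 was the only gene of the 6 that was highest in a middle bin, as were 49.5% of all genes. Its level in bin 1 was 104 CPM (92.0 to 117), in bin 2 it was 165 CPM (150 to 181) and in bin 3 132 CPM (119 to 147). It was 127 CPM in bin 4 and 74.8 CPM (64.3 to 86.4) in bin 5. Bin 2 was thus above both of its neighbours beyond counting error, at 159 and 172 CPM in the 2 sublibraries. A score without sox2 and sox3 also placed the highest pax3 level, 173 CPM, in bin 2. With that score tfap2a, tfap2c, dlx3 and dlx5 again fell at each step. Msx1 did not, at 1.19 CPM in bin 4 and 2.38 CPM in bin 5.

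**Figure D3:**
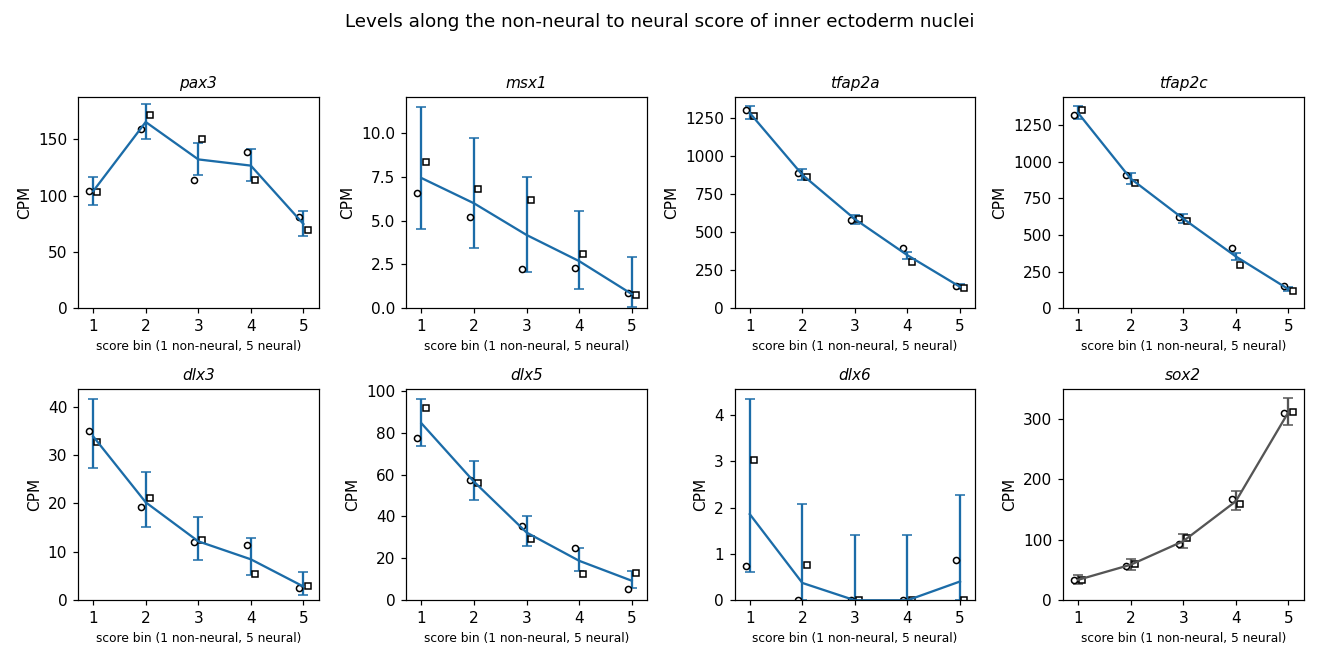
Level (CPM of summed UMIs, y axis) of the 7 genes and of sox2 in 5 bins of inner ectoderm-like nuclei ordered by a non-neural to neural marker score (x axis). Lines join both sublibraries together with exact 95% Poisson intervals, circles are sublibrary 1 and squares sublibrary 2. Tfap2a, tfap2c, dlx3, dlx5 and msx1 decline from bin 1 to bin 5, whereas pax3 is highest in bin 2, at 165 CPM.

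The decline of the AP-2 genes was also present inside single clusters, each split into 3 score bins. In the pde7b cluster tfap2a was at 368, 189 and 80.2 CPM from the least to the most neural bin. In the prdm14 cluster the corresponding tfap2a levels were 1344, 1071 and 944 CPM. Pax3 also declined in the pde7b cluster, at 104, 59.7 and 39.7 CPM. In the zic4 cluster it was highest in the least neural bin, at 157, 88.6 and 93.7 CPM. It differed from the AP-2 genes in the non-neural-like clusters. In the prdm14 cluster pax3 was at 166, 265 and 224 CPM, highest in the middle. In the mettl24 cluster pax3 was at 54.8 CPM in the least neural bin and 94.1 CPM in the middle bin.

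Nuclei with a sox2 UMI held fewer AP-2 transcripts in both layers. After thinning each nucleus to 2500 UMIs, 696 of 2706 inner nuclei (25.7%) had a sox2 UMI, compared with 6.24% of endoderm-like nuclei. Tfap2a was found in 43.0% (39.3 to 46.7%, exact binomial interval) of inner nuclei with sox2 and in 62.5% of those without, with differences of -16.3 and -23.0 points in the 2 sublibraries. For tfap2c the shares were 39.1% (35.4 to 42.8%) and 63.9%, with differences of -22.9 and -26.9 points. These 2 of the 5 genes with enough counts were found less often with sox2, as were 3.81% of all 6562 genes. Point values were lower still with more sox2 UMIs, since tfap2a was found in 45.2% (41.0 to 49.5%) of 553 nuclei with 1 sox2 UMI and in 34.2% (25.8 to 43.4%) of 120 with 2, although these intervals overlapped.

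Pax3 and sox2 were not apart in the inner layer. Pax3 was found in 16.8% of nuclei with sox2 (14.1 to 19.8%) and in 15.2% of those without (13.6 to 16.8%), and its CPM without thinning was 119 and 123. The shares with and without sox2 were 2.30% and 4.43% for dlx3 and 7.04% and 9.30% for dlx5, with intervals that overlapped. Without thinning, 4 of the genes were found less often with sox2. With sox3 as the criterion, tfap2a was found in 52.3% of 1079 nuclei with it and 60.9% of those without, and pax3 in 15.5% and 15.7%.

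Part of the difference lay between clusters and part within them. In the 4 inner clusters the tfap2a share with sox2 minus that without lay between -7.38 and -0.31 points, and the intervals overlapped in each. Tfap2c was lower beyond counting error in the prdm14 cluster (71.2% against 86.0%) and in the pde7b cluster (23.3% against 38.3%). In the mettl24 cluster it was at 90.5% and 89.4%, and in endoderm-like nuclei it was higher with sox2, in 33.9% of 59 nuclei against 15.1%. In the outer layer 245 of 1587 nuclei (15.4%) had a sox2 UMI, and 3 of 5 genes were found less often in them, as were 2.8% of genes, while none was found more often, as 2.91% were. These were tfap2a (56.7% against 78.1%), tfap2c (55.9% against 76.1%) and dlx5 (15.5% against 26.9%). Within outer clusters the AP-2 differences remained beyond counting error in the ugt3a2 cluster, at 79.4% against 91.9% for tfap2a and 77.5% against 88.4% for tfap2c, and overlapped in the tspan1 cluster. The dlx5 shares overlapped in both, at 23.5% against 34.7% and 9.79% against 11.1%. Pax3 was found in 6.12% of outer nuclei with sox2 and 3.65% without, which overlapped.

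**Figure D4:**
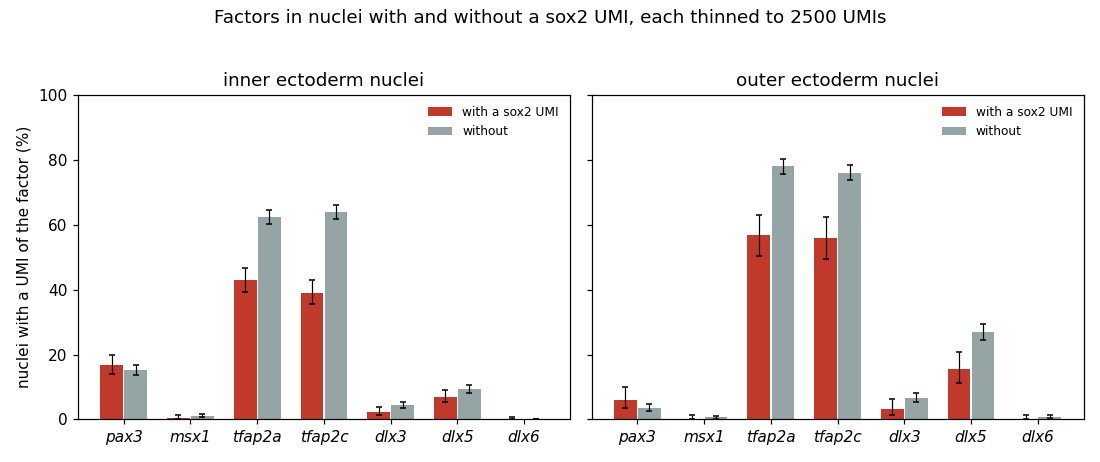
Share of nuclei with a UMI of each gene (%, y axis) among inner (left) and outer (right) ectoderm-like nuclei with a sox2 UMI (red) and without (grey), each nucleus thinned to 2500 UMIs. Lines are exact 95% binomial intervals, for counting error only. Tfap2a and tfap2c are lower with sox2 in both layers (43.0% against 62.5% for tfap2a in inner nuclei), and pax3 is at 16.8% and 15.2% in inner nuclei.

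Nuclei with UMIs of sox2, pax3 and tfap2a together were found mainly in the prdm14 cluster. Of the 117 inner nuclei with both sox2 and pax3 UMIs, 74 (63.2%) also had a tfap2a UMI, which is 2.73% of all inner nuclei (2.15 to 3.42%). Tfap2a was found in 71.6% of all 422 inner pax3 nuclei and in 57.5% of all inner nuclei. The prdm14 cluster held 57 of the triple nuclei, or 6.66% of its nuclei (5.08 to 8.54%). There tfap2a was found in 87.4% of all nuclei and in 89.1% of the 64 with sox2 and pax3, so the count follows its level in that cluster. The zic4 cluster, with 29 nuclei positive for sox2 and pax3, had 6 with tfap2a as well. In the outer layer there were 8 such nuclei (0.504%) and in endoderm-like nuclei 0 of 945, which allows a share of up to 0.317%.

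Of the 21 pairs of the 7 genes, 7 were found together more often in inner nuclei, in that the first gene of the pair was found in a larger share of nuclei with the second than without it. The AP-2 pair was the closest, with tfap2a in 81.0% of nuclei with tfap2c (78.9 to 82.9%) and in 25.7% of those without (23.2 to 28.3%). Among all 6562 genes tested 5.61% were found more often with tfap2c and 5.88% with tfap2a, and all 4 others of the 7 genes with enough counts were in both sets. The same pair was found together in endoderm-like nuclei, with tfap2a in 42.2% of nuclei with tfap2c and 15.2% of those without, and what free RNA or doublets add to these shares was not tested. Tfap2a was found in 90.5% of nuclei with dlx3 and 56.1% without, and in 86.9% of nuclei with dlx5 and 54.7% without. Tfap2c gave 82.9% and 56.5% by dlx3 and 86.0% and 54.8% by dlx5. Most inner nuclei with a dlx3 or dlx5 UMI therefore also had AP-2 UMIs, where 1.63% of all genes were found more often with dlx3 and 2.47% with dlx5.

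The other pairs were of pax3 with the AP-2 genes. Pax3 was found in 19.4% of inner nuclei with tfap2a (17.5 to 21.5%) and in 10.4% of those without (8.72 to 12.3%), and with tfap2c in 19.0% against 11% of those without. Of all genes 1.25% were found more often with pax3. No such relation was seen with the dlx genes. Pax3 was found in 15.3% of nuclei with dlx5 (10.9 to 20.5%) and 15.6% of those without, and 36 of the 422 pax3 nuclei had dlx5. With dlx3 the pax3 shares were 15.2% and 15.6%. Dlx3 and dlx5 occurred together in 17 inner nuclei, 7.20% of dlx5 nuclei (4.25 to 11.3%) against 3.56% of the rest, which overlapped. Taken the other way round dlx5 was found in 16.2% of dlx3 nuclei, just past the interval of the rest. Likewise 20 of the 24 msx1 nuclei had tfap2a and 20 had tfap2c (83.3% each), more than the nuclei without msx1, as did 1.08% of all genes. For the 2 inner nuclei with dlx6 no gene of the 7 passed, where 0.381% of all genes did. Both of these nuclei had tfap2a and tfap2c UMIs. However, 2 of 2 gives an interval of 15.8 to 100%, so neither AP-2 gene could have passed.

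Within clusters fewer of these relations were resolved. Tfap2a and tfap2c were found together more often inside the prdm14, pde7b and zic4 clusters, with 91.5% against 68.4% in the first and 40.0% against 14.8% in the last, but not beyond the intervals in the mettl24 cluster. In the pde7b cluster pax3 was found in 19.2% of nuclei with tfap2a and 6.76% without. In the prdm14 cluster, where pax3 was highest, it was found in 24.6% with tfap2a (21.6 to 27.9%) and 23.2% without, which overlapped. In the outer layer the pax3 share was not resolved from that of endoderm-like nuclei. There pax3 was found in 3.88% of nuclei with tfap2a and 4.50% without, from 46 and 18 nuclei. The difference between layers was not tested. In outer nuclei tfap2a was found in 90.0% of those with dlx5 and 69.7% of those without. All 10 outer nuclei with a dlx6 UMI had UMIs of both AP-2 genes, and 3 of them had dlx5.

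**Figure D5:**
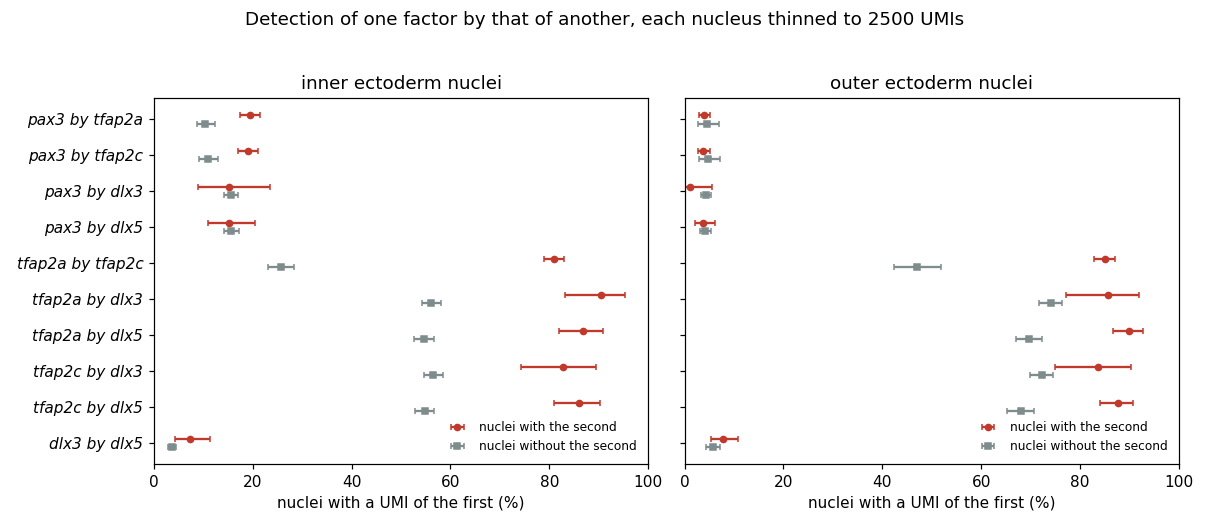
Share of nuclei with a UMI of a first gene (%, x axis) among nuclei with (red circles) and without (grey squares) a UMI of a second gene, for the 10 pairs of pax3, tfap2a, tfap2c, dlx3 and dlx5 (y axis, "first by second") in inner and outer ectoderm-like nuclei thinned to 2500 UMIs. Lines are exact 95% binomial intervals. Tfap2a by tfap2c is at 81.0% against 25.7% in inner nuclei, whereas pax3 by dlx5 is at 15.3% and 15.6%.

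The balance between related genes differed between clusters, and the outer ugt3a2 cluster set the values of its layer. Tfap2a made up 49.4% (48.7 to 50.1%) of the tfap2a and tfap2c UMIs in inner ectoderm-like nuclei, 49.3 and 49.5% in the 2 sublibraries. In outer nuclei the tfap2a share was 53.4% (52.6 to 54.2%), 53.1 and 53.6%, so the layers did not overlap. Within the outer layer the ugt3a2 cluster had 54.2% and the tspan1 cluster 49.5% (47.5 to 51.4%), the latter overlapping the inner layer. The pde7b cluster had 44.0% tfap2a and the zic4 cluster 55.6%, both of them inner neural-like. Dlx5 made up 72.2% (68.8 to 75.4%) of the dlx5 and dlx3 UMIs in inner nuclei and 83.9% (81.7 to 85.9%) in outer nuclei, and in the tspan1 cluster alone the 79.8% (73.0 to 85.5%) overlapped the inner value. Both are comparisons of 1 gene pair between classes and not of the levels of 2 genes.

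Across the 14 clusters 4 genes, tfap2a, tfap2c, dlx3 and dlx5, had like patterns, while pax3 and msx1 differed from them. By the correlation of log2(CPM + 1) over clusters, which share libraries and depth, tfap2a was most like tfap2c (r = 0.98), dlx3 (r = 0.96) and klf5, a Krüppel-like factor of epithelia (r = 0.96), out of 5929 genes. Dlx3 was most like klf5 (r = 0.97), and klf5 is 1 of the markers that named the non-neural clusters. Dlx5 was most like tfap2a (r = 0.94) and anxa4, an annexin (r = 0.94). Pax3 was most like cdknx, a Xenopus cell cycle inhibitor (r = 0.93), and its r with tfap2a was 0.40. Msx1 was most like kat2a, a histone acetyltransferase (r = 0.88), and ventx1.2, a BMP-induced homeobox gene of ventral cells (r = 0.86). Dlx6 had an r of 0.67 with tfap2a, 0.63 with tfap2c, 0.69 with dlx3 and 0.68 with dlx5. Its 31 UMIs were too few to place its pattern.

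Relatives of the 7 genes differed from them in several comparisons. Of 9 relatives (dlx1, dlx2, dlx4, msx2, pax7, pax6, tfap2b, tfap2d and tfap2e), 3 had at least 50 UMIs in the ectoderm-like nuclei. Pax7, a paralogue of pax3, had a log2 ratio of inner over outer of -2.45 ± 0.47 (SD, n = 2), from 5.67 and 34.7 CPM, in the direction opposite to pax3. Pax6, a factor of eye and forebrain, was higher in the inner layer at 1.72 ± 0.09 (SD, n = 2), and tfap2e was within 2-fold. Tfap2b and tfap2e were at least 2-fold lower in ectoderm-like than in other nuclei, the reverse of tfap2a and tfap2c.

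Of 17 other genes of the neural border and neural crest, 15 were in the table and 9 had enough counts in the ectoderm. Between germ layers the list went the other way from 5 of the 7 genes, with 1 of 10 at least 2-fold higher in ectoderm-like nuclei and 6 lower, a median of -1.17, where 6.82% and 8.63% of all genes were. The lowest of these were snai1 (-3.22) and ets1 (-2.66). In the inner layer 5 of the 9 were at least 2-fold higher, where 7.71% of all genes were, with a list median log2 ratio of 1.13 where the median of all genes was 0.17. The highest were eya1, a placodal transcription cofactor (2.13), foxd3 (1.61) and sox8 (1.60), while hes4, a Hairy-type repressor, was higher in the outer layer (-1.33). Between inner regions 3 of 9 were at least 2-fold higher in non-neural-like nuclei, where 2.71% of all genes were. These were prdm1 (-2.26), sox8 (-2.08) and hes4 (-1.60). Only foxd3 was higher in neural-like nuclei (3.09), where 1.79% of all genes were, and 5 were within 2-fold. As for the 7 genes, region counts of this and the next list rest on cluster names, which changed with the processing. Snai2 and sox10, genes of the later neural crest, were not detected, with 0 UMIs in 4293 ectoderm-like nuclei, which allows up to 0.142 CPM.

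Of 10 epidermal genes, 7 had enough counts in the inner layer, and 6 of these were at least 2-fold higher in non-neural-like nuclei, where 2.71% of all genes were. The list median was -1.35, where that of all genes was 0.01. The lowest ratios were those of bmp7.1, a BMP ligand (-2.27), olfm4 (-2.16) and ventx1.1 (-1.84). Grhl2, a Grainyhead factor, was within 2-fold (0.15). Between germ layers, 1 of 9 was at least 2-fold higher in ectoderm-like nuclei and 2 were lower, where 6.82% and 8.63% of all genes were. The other 6 were within 2-fold, and the list median was -0.63, where that of all genes was 0.06. Gata3 was at -2.76, whereas tfap2a, tfap2c, dlx3 and dlx5 were each at least 2-fold higher. Across layers, 4 of 8 were at least 2-fold higher in inner and 1 in outer nuclei, where 7.71% and 9.43% of all genes were. The other 3 were within 2-fold, and the list median was 0.78, where that of all genes was 0.17. Hgf (3.44) and olfm4 (2.61) were among those higher in inner nuclei, as pax3 was. The keratin krt12.4 (-2.95) was higher in outer nuclei, as dlx5 was.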

How the data were processed

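The authors aligned single-nucleus reads with the Parse pipeline to UCB_Xtro_10.0 and deposited counts of distinct transcripts (UMIs) per barcode and gene, not normalised or filtered. The submitters' processing notes name Seurat and Scanpy 1.9.6. The sources used here do not say how reads that fit similar genes were assigned, so tfap2a and tfap2c could share reads. The sublibrary came from the barcode suffix.

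Barcodes with at least 1500 genes were kept. Scrublet (scanpy 1.11.5) called 0 doublets automatically, so nuclei scoring above 0.15 (9.25%) were removed. Counts were scaled to 10000 and logged, and 2000 variable genes without the 7 genes and 3 gene lists, 30 components, 15 neighbours and Leiden clustering (leidenalg 0.10.2, resolution 1) gave the clusters. A cluster took the germ layer, layer and region of its highest mean standardised marker level if 3 region markers were raised, a rule set after marker scores and members' levels were seen. The cluster led by wnk2 (192 nuclei, median doublet score 0.123) stayed unnamed and 2 rich in dscaml1 and tp73 were kept apart. Zic1 and gbx2 were not analysed here.

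Summed counts gave CPM. Ratios are log2 of CPM + 1 for genes with at least 50 UMIs. The fold intervals are exact binomial ones. Shares use 1 draw of 2500 UMIs per nucleus, and no nucleus had fewer. Exact 95% Poisson and Clopper-Pearson intervals cover counting error only, the SD covers technical spread only, and a count of 0 allows 3. "Found less often" means intervals that do not overlap. Because nuclei of 1 pool are not replicates, results carry no p-value. Between sublibraries the chi-square per gene was 1.59, above what counting error alone gives. Scripts were tested on simulated data.

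The members, lists and tests were chosen with earlier results of these data known, and several markers were placed by the study in these nuclei. All 7 genes are named, with the 3 genes most like each over clusters (at least 500 UMIs), and up to 3 highest and 3 lowest of each list. Alternatives covered the gene minimum, doublets, clustering, scaling, pseudocount, thinning, bins, sox3 and each sublibrary.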

Additional observations from a re-analysis of the deposited data

Results flagged for a closer look

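All 7 genes gave counts in barcodes with fewer than 100 genes, which no comparison used, above the limit of 0.411 CPM that a count of 0 allows there. The levels were 512 CPM for tfap2a, 502 CPM for tfap2c, 62.5 CPM for pax3, 49.1 CPM for dlx5, 18.1 CPM for dlx3, 5.76 CPM for msx1 and 0.959 CPM for dlx6. In barcodes with at least 1500 genes they were 540, 517, 61.0, 51.1, 12.3, 5.35 and 0.718 CPM in the same order of genes. For dlx3 the small barcodes were higher beyond the Poisson intervals (15.1 to 21.5 against 11.3 to 13.3 CPM), and for tfap2a they were lower (496 to 528 against 533 to 546 CPM).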

How the results depend on the processing

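No paired analysis was possible because there is 1 group, whose 2 numbered samples are sublibraries of the same pool. Of the 7 counts of genes or pairs that lead the comparisons, 16 values moved by more than 1.5 times and 99 did not. Genes higher in ectoderm-like nuclei ranged from 4 to 5 when 1 sublibrary was used alone with the classes kept, genes higher in non-neural-like inner nuclei from 4 to 5 and pairs from 7 to 8, while the other counts were the same in each. Of the single ratios and shares, 140 moved by more than the sublibrary SD, 2 reversed and 173 did neither. With a minimum of 1000 genes, 2 genes were higher in the inner layer, 1 in non-neural-like inner nuclei and 4 were found less often with sox2. With a minimum of 2000 genes, 0 were higher in the outer layer, 1 in non-neural-like inner nuclei and 1 was found less often with sox2, and 1 pair was found together. With nuclei scoring above 0.12 removed, 2 were higher in the inner layer, 2 in non-neural-like inner nuclei and 2 highest in a middle bin, which was also the count with 8 bins. Without doublet removal 4 were found less often with sox2. Without thinning that count was 4 and 11 pairs were found together. With no minimum for genes 2 were higher in the outer layer. No outer neural-like cluster formed at resolution 0.5, with a minimum of 1000 or 2000 genes, or with more variable genes. At resolution 0.5 the count of genes higher in non-neural-like inner nuclei was 0. There the neural over non-neural ratios of msx1 (0.0927) and tfap2a (0.115) reversed. The cause was not tested. Clusters and names were rebuilt for settings of the gene minimum per nucleus, doublets and resolution. The alternatives without the tspan1 cluster, without the ventx3.2 cluster and without shared barcodes were chosen after seeing the data and moved none of the 7 counts. At this depth dlx6 and msx1 differences between neighbouring classes were not detectable.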
